A study of Homo sapiens with 6 samples.

Results

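Messenger RNA was measured for 10 genes of the glucocorticoid pathway: NR3C1, which encodes the glucocorticoid receptor, and 9 genes known as its targets, FKBP5, TSC22D3, PER1, KLF9, ZBTB16, SGK1, ERRFI1, CRISPLD2 and DUSP1. They were taken by symbol from the 38557 genes listed in each count file, and all 10 were found and passed the filter on low counts, among 16107 tested genes. The cells were cardiomyocytes made from the hiPSC line WTC11 (human induced pluripotent stem cells, an established line), and all are labelled WT, wild type. They were cultured either in RPMI plus B27 (3 libraries) or in DMEM plus fatty acids (3 libraries), with biological replicates numbered 1 to 3 in both media. All 6 libraries come from this 1 line, and the labels give no time in culture, no composition for either medium and no statement of whether a replicate number marks a separate differentiation. The p-values therefore describe the spread between these cultures.

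The glucocorticoid receptor is a nuclear receptor that waits in the cytosol bound to heat shock protein chaperones. On binding a steroid such as cortisol or corticosterone it moves to the nucleus, where it activates some genes through response elements and represses others, many of them inflammatory. In heart muscle it is known for roles in foetal maturation and in metabolic and contractile gene expression. B27 is a serum-free supplement whose usual formulation includes corticosterone. Whether either medium here held a glucocorticoid is not stated in the sources used here, so the comparison between media is of whole media and not of a steroid.

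None of the 10 genes differed between media at an adjusted p under 0.05 (edgeR quasi-likelihood test, Benjamini-Hochberg over all 16107 genes), where 1.36% of all tested genes did (1.07% lower and 0.292% higher in DMEM plus fatty acids). At an unadjusted p under 0.05 there were 5 of the 10, where all tested genes gave 17.7%, and the DESeq2 Wald test called 4 of the 10, where it called 6.93% of genes. When edgeR took replicate numbers as a block, KLF9, ERRFI1, DUSP1 and PER1 passed, all lower in DMEM plus fatty acids, where 4.78% of tested genes were called in either direction and 3.42% lower. Fitted fold changes of these 4 ran from 1.62-fold lower for PER1 to 5.70-fold lower for KLF9 (without the block). The receptor itself was 1.44-fold higher in DMEM plus fatty acids and missed the threshold in both fits (adjusted p 0.0738 without and 0.0516 with the block). FKBP5, TSC22D3, ZBTB16, SGK1 and CRISPLD2 passed in neither fit. The log2 fold changes of the 10 genes (DMEM plus fatty acids relative to RPMI plus B27 throughout) had a median of -0.73, with 8 of 10 negative, beside a median of 0.01 over all tested genes.

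The libraries held 23232324 to 31035389 gene counts. Levels are given as CPM, each gene's count scaled to 1000000 gene counts with TMM library sizes. Cardiomyocyte markers were present in every library, with TNNT2 (cardiac troponin T) at 3001 to 4216 CPM and all 12 listed markers detected in all 6. Of 4 pluripotency markers, NANOG had at most 1 count, LIN28A 0 to 24, POU5F1 2 to 18 and DPPA4 4 to 14. Hepatic and foregut endoderm markers (6 genes) summed to 15.9, 43.7 and 108.5 CPM in RPMI plus B27. In DMEM plus fatty acids they summed to 7.62, 21.5 and 30.7, so the groups overlapped. Of these markers AFP had 0, 298 and 1685 counts against 2, 9 and 164. Summed stromal, smooth muscle and epicardial transcripts were lower in DMEM plus fatty acids. The summed level of 12 fibroblast and stromal markers was 4341 to 8415 CPM in RPMI plus B27 and 758.5 to 1959 CPM in DMEM plus fatty acids, 11 of 12 had negative fold changes and 6 were called, all lower. COL1A1 went from 1829 to 278.2 CPM (-2.72 ± 0.38, adjusted p 0.0338). Of the stromal markers, only DCN was at 0 in any library, in 1. Smooth muscle markers (6 genes) summed to 1604 to 2040 against 356.6 to 1176 CPM and epicardial markers (7 genes) to 1357 to 1643 against 625.8 to 704.7 CPM. In these lists 1 of 6 and 1 of 5 tested markers were called, each lower, where 1.07% of all tested genes were. The epicardial sums were nearly all KRT8 and KRT19, and WT1 had only 2 to 23 counts. Endothelial sums overlapped and were nearly all KDR (27.5, 143.0 and 238.9 CPM against 114.5, 399.6 and 463.2). The endothelial markers EMCN (7.80, 1.32 and 1.23 CPM against 0.301, 0.234 and 0.0296) and TEK (1.13, 0.723 and 0.485 against 0.258, 0.1003 and 0.178) were lower in DMEM plus fatty acids without overlap. They had only 1 to 7 counts in that medium, and 12.8% of all tested genes were lower without overlap. Of 3 endothelial markers tested, 0 were called. PECAM1, CDH5 and VWF were at 0 in 3, 3 and 1 libraries.

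RPMI plus B27 replicate 1, which had the highest stromal sum (8415 CPM, against 5394 and 4341 in replicates 2 and 3), was also the highest RPMI plus B27 library for 7 of the 10 genes. Over all tested genes it was the highest for 40.8%. It also had the highest cardiomyocyte sum of its medium (37150 CPM, against 33990 and 30350) and the highest smooth muscle sum (2040, against 1832 and 1604). Its epicardial and endothelial sums were the lowest of its medium, as were KRT8 (1065 CPM, against 1358 and 1480) and KDR, which make up most of them. Most other markers of both lists were highest in it. Among these were TBX18 (7.72 CPM, against 3.11 and 4.10), KRT19 (280.9, against 100.2 and 157.3), EMCN and TEK. UPK3B was lowest in it and PECAM1 lay in between, both at few counts. The part of stromal cells in the differences of KLF9, ERRFI1, DUSP1 and the other genes was not tested. In bulk RNA, fewer cells of a type and less RNA per cell cannot be told apart, so each value here is an average over whatever cells the culture held.

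**Figure D1:**
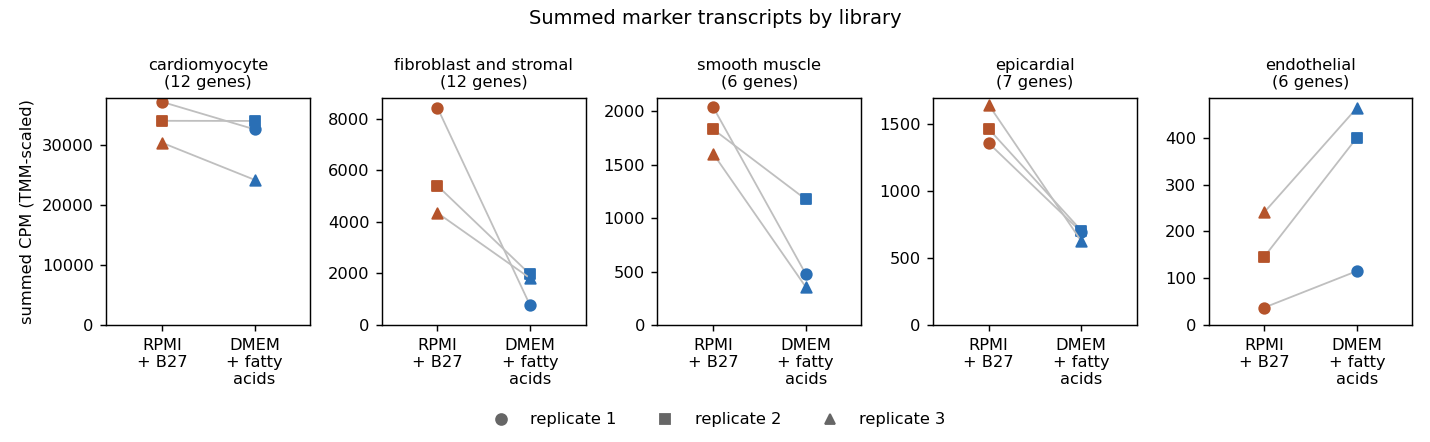
Summed CPM (TMM-scaled, linear axes from 0) of the markers of 5 cell types in each library, with symbols for replicate numbers and grey lines joining libraries of the same number. Fibroblast and stromal, smooth muscle and epicardial sums do not overlap between media. The RPMI plus B27 replicate 1 library has the highest cardiomyocyte, stromal (8415 CPM) and smooth muscle sums.

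**Figure D2:**
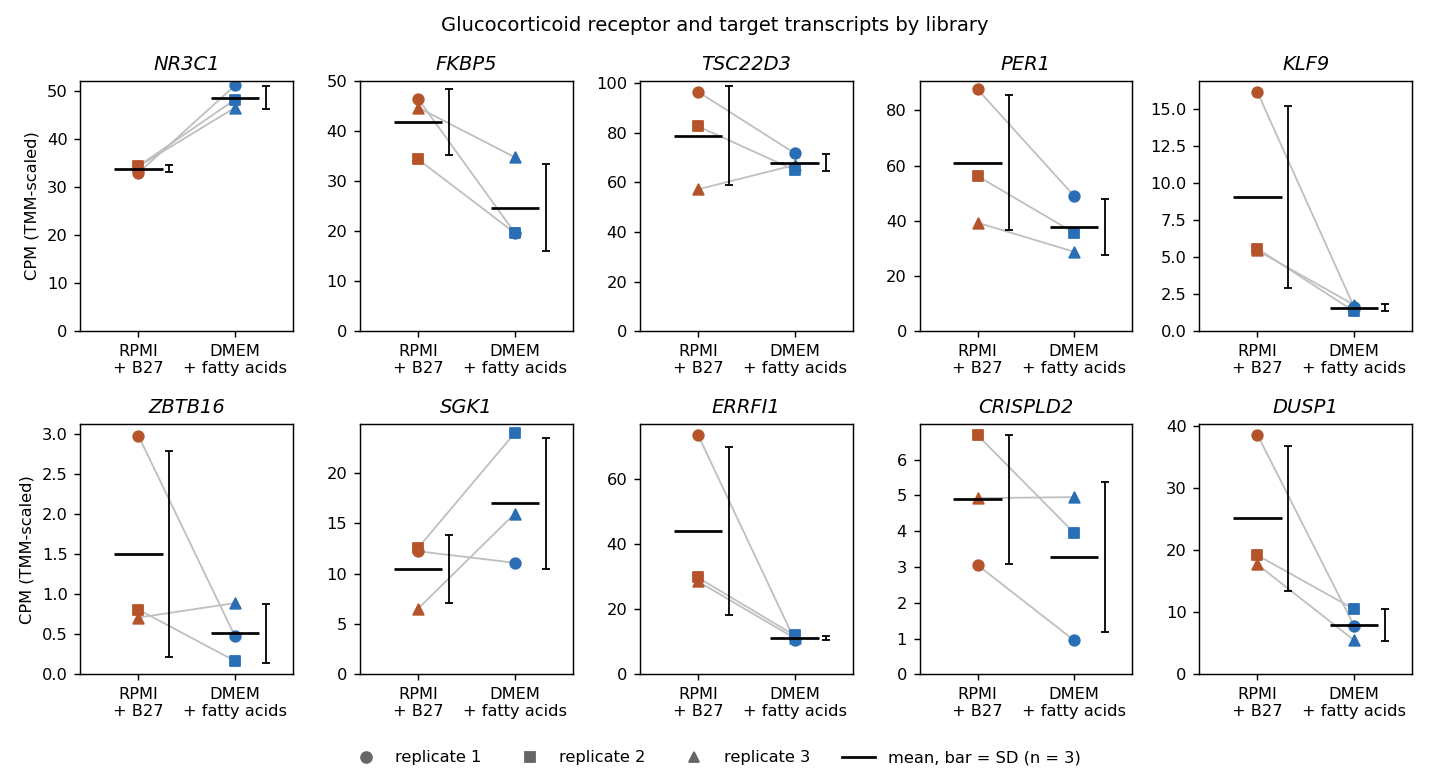
Each panel shows 1 gene, with CPM on a linear axis from 0 for the 3 libraries of each medium, the mean as a black line, the SD as a bar (n = 3) and grey lines joining libraries of the same replicate number. NR3C1, KLF9, ERRFI1 and DUSP1 show no overlap between media, as do 25.6% of all tested genes. For KLF9, ERRFI1 and DUSP1 the RPMI plus B27 replicate 1 library stands well above the others of its medium.

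The receptor gene NR3C1 lies on the minus strand of chromosome 5, from 143277931 to 143435512 in GRCh38. NR3C1 in RPMI plus B27 was at 32.9, 34.3 and 34.2 CPM in replicates 1 to 3, and in DMEM plus fatty acids it was 51.1, 48.1 and 46.5 CPM. The groups did not overlap, where 12.8% of tested genes were higher without overlap. All 3 replicate pairs moved upward (by 0.64, 0.49 and 0.44 on the log2 scale), as did 25.8% of tested genes. The means were 33.8 ± 0.812 and 48.5 ± 2.34 CPM (SD, n = 3 each), and NR3C1 had the smallest ratio of highest to lowest library of the 10 genes in each medium (1.04 and 1.10). Its log2 fold change was 0.52 ± 0.11 (SE), with a 95% interval of 0.27 to 0.78. It passed the threshold with library sizes taken as total counts (0.63, adjusted p 0.0484, a setting that called 1.25% of genes) and by the DESeq2 Wald test (0.52, adjusted p 0.00638), and over its 12 alternatives the adjusted p ran from 0.00638 to 0.235.

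Related steroid receptors were measured beside it. NR3C2, the mineralocorticoid receptor, which also binds glucocorticoids, had 3.43, 1.62 and 1.27 CPM in RPMI plus B27, against 6.67, 2.74 and 3.23 CPM in the other medium. NR3C2 had a log2 fold change of 0.99 ± 0.50 (adjusted p 0.349 without and 0.0796 with the block), and PGR, the progesterone receptor, had 0.60 ± 0.63 (adjusted p 0.662 and 0.589). Neither passed in either edgeR fit. Per kilobase of merged exons (GENCODE 29, an annotation that may differ from the one used for counting), NR3C1 had 4.13 ± 0.0985 CPM in RPMI plus B27, against 5.93 ± 0.285 in DMEM plus fatty acids (SD, n = 3). NR3C2 had 0.346 ± 0.191 and 0.693 ± 0.352 on the same scale. The glucocorticoid receptor was thus the more abundant of these 2 receptor transcripts in each of the 6 libraries.

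FKBP5 encodes FKBP51, a co-chaperone that lowers the receptor's affinity for steroid and whose gene is among the most widely used readouts of receptor activity. FKBP5 lies on the minus strand of chromosome 6, from 35573590 to 35728583. It stood at 46.5, 34.4 and 44.7 CPM in RPMI plus B27 and at 19.7, 19.7 and 34.8 CPM in DMEM plus fatty acids. The groups overlapped through 1 library of each medium, since replicate 3 in DMEM plus fatty acids lay just above replicate 2 in RPMI plus B27. Each replicate pair nevertheless had less FKBP5 in DMEM plus fatty acids, with log2 differences of -1.24, -0.80 and -0.36 in pairs 1 to 3, a direction that 24.0% of tested genes shared in all 3 pairs. The fitted log2 fold change was -0.76 ± 0.26 (95% interval -1.36 to -0.16), with an adjusted p of 0.189 without and 0.0658 with the block. When replicate 3 of DMEM plus fatty acids was left out, the difference was -1.09 (adjusted p 0.0931). Over the 12 alternatives its adjusted p ran from 0.0658 to 0.434.

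TSC22D3 encodes GILZ, a leucine zipper protein that carries part of the anti-inflammatory action of glucocorticoids. TSC22D3 lies on the minus strand of chromosome X, from 107713221 to 107775988. It had 96.6, 82.6 and 57.2 CPM in RPMI plus B27 against 71.8, 65.0 and 67.0 CPM in DMEM plus fatty acids. The DMEM plus fatty acids values all lay inside the range of the other medium. Its log2 fold change was -0.21 ± 0.19 (adjusted p 0.598), and the 95% interval of -0.66 to 0.23 spans 0. Over the alternatives its adjusted p ran from 0.193 to 0.928. Pairs 1 and 2 were lower and pair 3 higher in DMEM plus fatty acids. Per kilobase, TSC22D3 was the highest of the 10 transcripts by mean in both media, at 21.5 ± 5.45 and 18.5 ± 0.951 CPM.

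PER1 is a repressor of the circadian clock and a gene that both the receptor and cyclic AMP signalling induce within minutes to hours. PER1 lies on the minus strand of chromosome 17, from 8140472 to 8152404. It measured 87.6, 56.2 and 39.3 CPM in RPMI plus B27, against 48.9, 35.6 and 28.8 CPM in DMEM plus fatty acids. The groups overlapped, but libraries with the same number held the same rank in both media, and each pair was lower in DMEM plus fatty acids with log2 differences of -0.84, -0.66 and -0.45. The SE of the log2 fold change was 0.31 without the block (-0.69, adjusted p 0.307) and 0.12 with it (-0.65, adjusted p 0.0384). Without RPMI plus B27 replicate 1 the unblocked value was -0.34 (adjusted p 0.582), and 0.0384 and 0.582 were the lowest and the highest over the alternatives.

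KLF9, a zinc finger transcription factor of the Krüppel-like family that many tissues induce on glucocorticoid or thyroid hormone exposure, had the largest difference of the 10. KLF9 lies on the minus strand of chromosome 9, from 70384604 to 70414657. Its counts were 428, 131 and 146 in RPMI plus B27, against 38, 40 and 60 in DMEM plus fatty acids, or 16.1, 5.57 and 5.44 CPM against 1.64, 1.34 and 1.78 CPM. The lowest RPMI plus B27 library lay above the highest DMEM plus fatty acids library, as for 12.8% of tested genes. RPMI plus B27 replicate 1 was 2.96 times the lowest library of its medium. KLF9's log2 fold change was -2.51 ± 0.48 (95% interval -3.64 to -1.39), lower than that of all but 1.01% of tested genes, with an adjusted p of 0.0600 without and 0.0289 with the block. Without RPMI plus B27 replicate 1 it was -1.80 (adjusted p 0.0585). Over the alternatives its adjusted p ran from 6.59e-06 by DESeq2 to 0.196.

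ZBTB16, which encodes the transcription repressor PLZF and is among the genes most strongly induced by glucocorticoids in several cell types, was close to the limit of what these libraries resolve. ZBTB16 lies on the plus strand of chromosome 11, from 114059711 to 114256770. Only 79, 19 and 19 reads were counted in RPMI plus B27, and 11, 5 and 30 in DMEM plus fatty acids. The count of 5 has a 95% exact Poisson interval of 1.62 to 11.7, which covers counting error only. On the CPM scale the RPMI plus B27 libraries had 2.98, 0.808 and 0.709 and the DMEM plus fatty acids libraries 0.474, 0.167 and 0.889, so the groups overlapped. ZBTB16's log2 fold change of -1.53 ± 0.75 (adjusted p 0.340) was -0.55 without RPMI plus B27 replicate 1 (adjusted p 0.722, the highest over the alternatives, of which 0.241 was the lowest). When replicate 3 of DMEM plus fatty acids was left out it was -2.24 (adjusted p 0.270). Pair 3 went the other way, by 0.30.

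ERRFI1 encodes MIG6, a feedback inhibitor of the epidermal growth factor receptor. ERRFI1 lies on the minus strand of chromosome 1, from 8011727 to 8026309. It had 73.5, 29.7 and 28.5 CPM in RPMI plus B27 and only 10.6, 11.97 and 11.1 CPM in DMEM plus fatty acids. The DMEM plus fatty acids libraries were nearly identical, the highest being 1.13 times the lowest, while RPMI plus B27 replicate 1 was 2.58 times the lowest of its medium. The log2 fold change of ERRFI1 was -1.97 ± 0.38 (95% interval -2.84 to -1.09), with an adjusted p of 0.0596 without and 0.0349 with the block. Without RPMI plus B27 replicate 1 the difference was smaller (-1.37) but its adjusted p was 0.0414, under the threshold, in a fit that called 0.183% of tested genes. Over the alternatives its adjusted p ran from 1.49e-05 by DESeq2 to 0.176.

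DUSP1 encodes a phosphatase that switches off the MAP kinases p38, JNK and ERK, and its induction is a classical part of the anti-inflammatory action of glucocorticoids. DUSP1 lies on the minus strand of chromosome 5, from 172768096 to 172771195. RPMI plus B27 libraries had 38.7, 19.2 and 17.8 CPM, and DMEM plus fatty acids libraries had 7.88, 10.5 and 5.51 CPM. No DMEM plus fatty acids library reached the lowest RPMI plus B27 library, as for 12.8% of tested genes. All 3 pairs were lower, with log2 differences of -2.29, -0.86 and -1.67. DUSP1's log2 fold change was -1.66 ± 0.37 (95% interval -2.53 to -0.80), with an adjusted p of 0.0832 without and 0.0357 with the block. Without RPMI plus B27 replicate 1 it was -1.21 (adjusted p 0.141). Over the alternatives its adjusted p ran from 0.000556 by DESeq2 to 0.193.

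SGK1, a kinase that controls sodium channels and transporters and responds to glucocorticoids, mineralocorticoids and serum, was the 1 target gene of the 9 with a positive fitted fold change. SGK1 lies on the minus strand of chromosome 6, from 134169256 to 134318112. Its levels were 12.2, 12.6 and 6.53 CPM in RPMI plus B27, against 11.1, 23.9 and 15.95 CPM in DMEM plus fatty acids. Of the 3 pairs, pair 1 had a log2 difference of -0.14 and pairs 2 and 3 were higher in DMEM plus fatty acids, by 0.93 and 1.28. SGK1's fitted log2 fold change was 0.71 ± 0.35 (95% interval -0.12 to 1.53, adjusted p 0.348 without and 0.209 with the block), and it was 0.38 when replicate 2 of DMEM plus fatty acids was left out. Over the alternatives its adjusted p ran from 0.209 to 0.706.

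CRISPLD2, which encodes a secreted lipopolysaccharide-binding protein, varied more within DMEM plus fatty acids than between media. CRISPLD2 lies on the plus strand of chromosome 16, from 84819985 to 84909508. It had 3.05, 6.68 and 4.92 CPM in RPMI plus B27, against 0.947, 3.95 and 4.95 CPM in DMEM plus fatty acids, where replicate 1 was the low library in each medium. The log2 fold change of CRISPLD2 was -0.56 ± 0.57 (adjusted p 0.651) and -0.14 when replicate 1 of DMEM plus fatty acids was left out (adjusted p 0.903, the highest over the alternatives, of which 0.256 was the lowest). Its 95% interval of -1.90 to 0.77 is too wide to tell a fall from a rise.

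**Figure D3:**
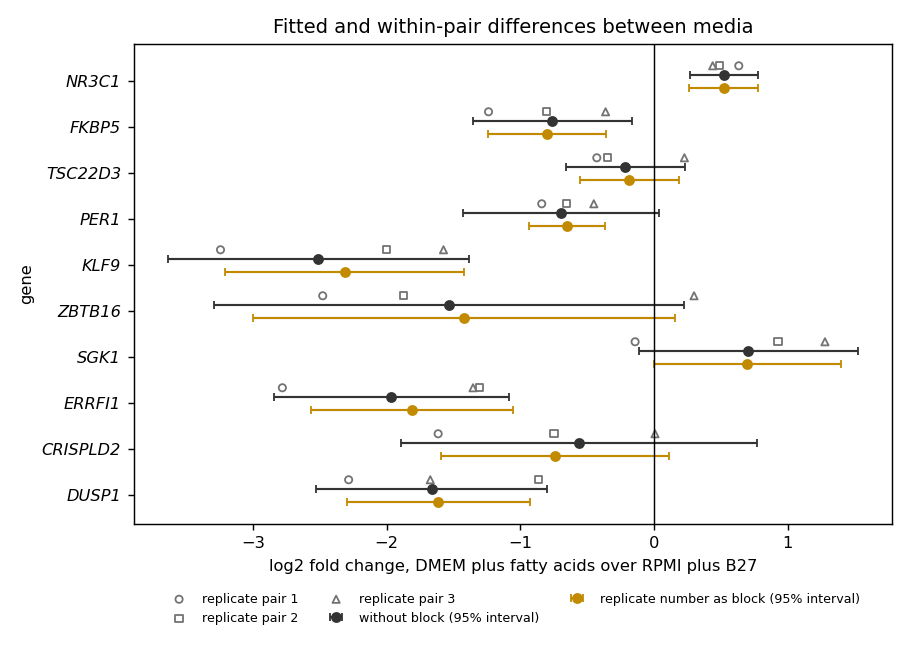
For each gene on the vertical axis, filled points give the fitted log2 fold change (DMEM plus fatty acids relative to RPMI plus B27) with its 95% interval, in black without and in ochre with the replicate number as a block, and open symbols give the log2 difference within each replicate pair. The SE of PER1 is 0.31 without and 0.12 with the block, and NR3C1 and SGK1 are the 2 genes to the right of 0.

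**Figure D4:**
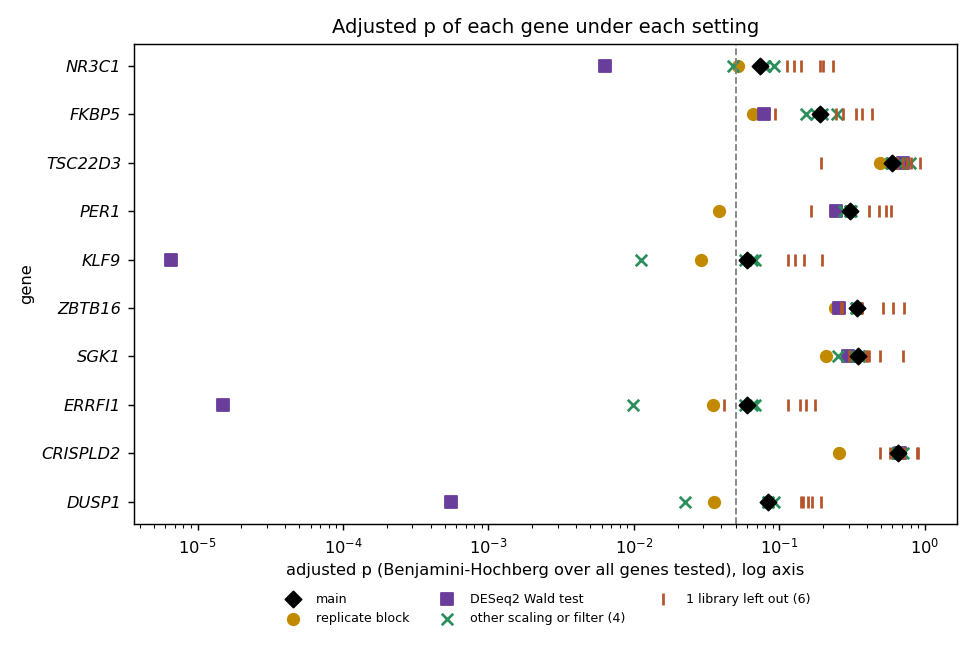
Adjusted p (log axis) of each of the 10 genes in the fit without the block (black diamonds) and under each alternative, with the dashed line at 0.05. KLF9, ERRFI1 and DUSP1 lie left of the line with the block, by DESeq2 and with no filter on low counts. These settings called 4.78%, 6.93% and 2.00% of all genes. ERRFI1 also lies left of it without RPMI plus B27 replicate 1 (0.183% of all genes). NR3C1 does so by DESeq2 and with scaling by total counts (1.25%), and PER1 with the block alone. FKBP5, TSC22D3, ZBTB16, SGK1 and CRISPLD2 do so under none of the settings shown.

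Promoters are shown for the 4 genes called with the block, so that the searched letters can be read in place. Each is the 250 bases upstream of the RefSeq start on GRCh38.p14, in the direction of transcription, with searched motifs in capitals and all else in lower case.
DUSP1, chr5:172771196-172771445, minus strand: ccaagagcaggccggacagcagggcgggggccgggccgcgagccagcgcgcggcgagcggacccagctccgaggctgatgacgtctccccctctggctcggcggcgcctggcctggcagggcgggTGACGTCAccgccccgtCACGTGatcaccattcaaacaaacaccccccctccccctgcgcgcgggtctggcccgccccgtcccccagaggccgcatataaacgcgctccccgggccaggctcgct
PER1, chr17:8152405-8152654, minus strand: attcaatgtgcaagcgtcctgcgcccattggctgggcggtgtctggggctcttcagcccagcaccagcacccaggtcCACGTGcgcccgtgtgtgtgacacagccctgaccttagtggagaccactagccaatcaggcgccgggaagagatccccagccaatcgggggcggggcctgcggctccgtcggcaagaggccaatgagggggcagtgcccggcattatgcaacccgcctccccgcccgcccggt
ERRFI1, chr1:8026310-8026559, minus strand: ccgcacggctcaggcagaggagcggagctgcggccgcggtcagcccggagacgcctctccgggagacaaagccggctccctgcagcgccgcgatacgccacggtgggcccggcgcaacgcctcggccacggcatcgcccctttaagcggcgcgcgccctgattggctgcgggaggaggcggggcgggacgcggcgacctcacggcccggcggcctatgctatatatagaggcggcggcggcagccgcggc
KLF9, chr9:70414658-70414907, minus strand: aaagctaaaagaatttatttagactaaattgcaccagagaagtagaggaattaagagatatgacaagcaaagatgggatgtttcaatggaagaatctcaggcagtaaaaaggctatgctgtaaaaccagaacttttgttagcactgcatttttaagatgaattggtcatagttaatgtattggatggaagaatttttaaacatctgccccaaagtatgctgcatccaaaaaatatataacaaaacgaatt

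Both strands were searched for the palindromic glucocorticoid response element (the arm AGAACA, 3 free bases and the arm TGTTCT), its core ACANNNTGT, its single arm AGAACA, the cyclic AMP element TGACGTCA and the E-box CACGTG, which clock factors bind. The core and the arm lie within the full element, so a full match counts for all 3. DUSP1 held TGACGTCA from -125 to -118 and CACGTG from -108 to -103, counted back from the start site. PER1 held CACGTG from -173 to -168. ERRFI1 and KLF9 held none of the 5 motifs, and the KLF9 window was poor in G and C (32.4%, against a median of 58.0% over 35116 windows). RefSeq windows matched 9 of the 10 genes, in 21 windows because some genes have several starts. Among these, the full element and the arm were found in 0 windows. The core was found in 1, a TSC22D3 window, the cyclic AMP element in 1 and the E-box in 3 (FKBP5, PER1 and DUSP1). Over all 35116 windows the shares were 0.00285% for the full element, 4.61% for the core, 12.4% for the arm, 1.65% for the cyclic AMP element and 6.34% for the E-box. The receptor is known to act largely through distant elements, which these windows do not reach.

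Seen by level per kilobase, the target genes changed their order between media. In RPMI plus B27, TSC22D3 was followed by DUSP1 (12.5 ± 5.79 CPM per kilobase), PER1 (11.2 ± 4.49) and ERRFI1 (10.5 ± 6.15), whose libraries overlapped with their neighbours throughout. NR3C1 (4.13) and FKBP5 (3.94 ± 0.616) came next and overlapped with each other but with neither ERRFI1 above nor KLF9 (1.75 ± 1.19) below. SGK1 (1.64 ± 0.534), CRISPLD2 (0.982 ± 0.365) and ZBTB16 (0.576 ± 0.493) were lowest and overlapped in turn. In DMEM plus fatty acids, PER1 (6.92 ± 1.88) and NR3C1 (5.93) followed TSC22D3, and their libraries overlapped. DUSP1 (3.95 ± 1.24), ERRFI1 (2.70 ± 0.163), SGK1 (2.68 ± 1.02) and FKBP5 (2.33 ± 0.822) then formed an overlapping run below NR3C1. CRISPLD2 (0.660 ± 0.419), KLF9 (0.306 ± 0.0434) and ZBTB16 (0.196 ± 0.139) closed the order. All values here are levels in CPM per kilobase with SD over 3 libraries, and they move with the exon length assumed.

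Of the 10 genes, 4 had no overlap between media: KLF9, ERRFI1 and DUSP1 lower and NR3C1 higher in DMEM plus fatty acids. All tested genes gave 25.6%, with 12.8% in each direction. All 3 replicate pairs were lower for 5 of the 9 target genes (FKBP5, PER1, KLF9, ERRFI1 and DUSP1), where 24.0% of tested genes were. Profiles across the 6 libraries, as log2 CPM centred on each gene's mean, were compared by their root mean square distance. The closest pairs were ERRFI1 with DUSP1 (0.28), KLF9 with ERRFI1 (0.29) and TSC22D3 with PER1 (0.33), and the farthest was KLF9 with SGK1 (1.602). FKBP5 was no nearer than 0.50 to any other of the 10 genes (TSC22D3). Among 10027 tested genes whose mean reached 10 CPM, the 5 most like FKBP5 by this measure were PM20D2 and ADAMTS12 (0.13 each), ADAM15 (0.13), SUN2 and NDE1 (0.14 each). ADAMTS12 was called with the block (log2 fold change -1.0 ± 0.21, adjusted p 0.0728 without and 0.0293 with it), and the other 4 passed in neither fit. Because the 5 were picked by likeness to FKBP5 over the same 6 libraries, their direction between media follows from the choice. Their tests therefore add nothing about FKBP5.

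The receptor's own machinery gave no call. Over all tested genes, 1.36% were called without the block, 4.78% with it and 6.93% by DESeq2, and 17.7% had an unadjusted p under 0.05. In lists this short, 0 calls therefore say little. Of 14 chaperones and transport factors, 0 passed in either edgeR fit or by DESeq2, and 2 had an unadjusted p under 0.05. Their median log2 fold change was 0.01, with members between -0.25 and 0.50. HSP90AB1, the constitutive HSP90 that holds the receptor ready for ligand, had -0.16 ± 0.13, and FKBP4, which encodes the co-chaperone that FKBP51 opposes, had -0.15 ± 0.11. The smallest p values were those of PPID (0.34 ± 0.12), BAG1 (0.49 ± 0.17) and HSPA8 (0.50 ± 0.26), with adjusted p values of 0.194, 0.206 and 0.376. HSP90 and HSPA8 have processed pseudogenes, so their counts are uncertain where reads matched several copies. Among 15 co-regulators 0 passed in either edgeR fit (median 0.04; 1 at an unadjusted p under 0.05; 0 by DESeq2), and the coactivators NCOA1 (0.46 ± 0.18) and NCOA2 (0.36 ± 0.16) had adjusted p values of 0.239 and 0.287, followed by NCOA3 (-0.24 ± 0.14, adjusted p 0.421).

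Of 10 genes of steroid supply and metabolism, 4 passed the filter on low counts. Of those, 0 passed in either edgeR fit, where 1.36% and 4.78% of all tested genes did. At an unadjusted p under 0.05 there were 0, where all tested genes gave 17.7%, and DESeq2 called 0, where it called 6.93%. With so few genes these counts say little. CYP11A1, the enzyme that starts steroid synthesis, had 0.47 ± 0.24 (adjusted p 0.359), SRD5A1 -0.30 ± 0.19 (0.460) and SRD5A3 0.64 ± 0.42 (0.468). HSD11B1, which regenerates active glucocorticoid from its inert form, had 1, 1 and 0 counts in RPMI plus B27, against 0, 1 and 2 in DMEM plus fatty acids. HSD11B2, which inactivates it, had 13, 5 and 7 against 3, 3 and 12. CYP11B1, which makes cortisol, had no count in any library, which allows up to 0.0967 to 0.129 CPM depending on the library. No difference in these 3 enzymes was detectable at this depth.

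Further genes known to be induced by glucocorticoids did not share a direction. Of 42 such genes 36 were tested, 21 with negative and 15 with positive fold changes and a median log2 fold change of -0.14 beside 0.01 for all tested genes. AQP1, a water channel, fell from 266.9 to 82.7 CPM on average (-1.69 ± 0.25, adjusted p 0.0386). FBXO32, the ubiquitin ligase atrogin-1, which FOXO factors also drive, rose from 99.1 to 187.0 CPM (0.92 ± 0.15, adjusted p 0.0442). These were the 2 called, where 1.36% of all tested genes were. At an unadjusted p under 0.05 there were 15 of the 36, where all tested genes gave 17.7%. DESeq2 called 9 of the 38 it tested, where it called 6.93% of genes. With the block 7 were called, 5 lower and 2 higher, where 3.42% of all tested genes were lower and 1.36% higher. The lower ones added included TGM2 (transglutaminase 2), ANXA1 (annexin A1) and GADD45B, a stress response gene. Their log2 fold changes with the block were -1.57 ± 0.15, -0.95 ± 0.13 and -0.96 ± 0.14, with adjusted p values of 0.0119, 0.0236 and 0.0250. SAMHD1, a nucleotide hydrolase, was the added higher one (0.71 ± 0.14, adjusted p 0.0482 with and 0.124 without the block). TGM2 and ANXA1 are also abundant in stromal cells, whose markers were lower in DMEM plus fatty acids. RPMI plus B27 replicate 1, with the highest stromal sum, had the highest TGM2 of its medium (1279 CPM, against 679.3 and 1153). It had the lowest ANXA1 (44.9 CPM, against 120.2 and 139.4). The part of stromal cells was not tested. When each of the 6 libraries was dropped in turn, AQP1 was called once (without RPMI plus B27 replicate 3) and FBXO32 was called in 0 of 6 fits. Their adjusted p reached 0.116 and 0.123. These fits called only 0.0182% to 0.79% of all tested genes, the most without RPMI plus B27 replicate 3, so few calls are not particular to these genes.

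Genes that glucocorticoids usually repress had mostly negative fold changes. Of 14 listed, which include NR3C1 for its known autoregulation, 9 were tested, with 8 negative fold changes and a median of -1.93. That median is the value of MMP1, with 52, 33 and 45 counts in RPMI plus B27 against 2, 17 and 21 in DMEM plus fatty acids. VCAM1, at 254.5 and 241.2 CPM on average, had -0.08 ± 0.14 (adjusted p 0.811). ICAM1 (-0.86 ± 0.64) and LIF (-0.32 ± 0.40) overlapped between media. CCL2, a monocyte chemokine, fell from 115, 90 and 83 counts to 9, 15 and 7 (-3.36 ± 0.39, adjusted p 0.0256). It was the 1 of 9 called without the block, where 1.36% of all tested genes were. At an unadjusted p under 0.05 there were 6 of the 9, where all tested genes gave 17.7%. DESeq2 called 7 of the 10 it tested, where it called 6.93% of genes. IL11 had 51, 28 and 17 counts against 5, 2 and 3, and PTGS2 (cyclooxygenase 2) had 56, 13 and 18 against 1, 2 and 0. Both were called with the block (adjusted p 0.0220 and 0.0260), where 3.42% of all tested genes were lower, and not without it (0.0540 and 0.0584). Fold changes of such low counts depend on the prior count of the fit, and those of IL11 and PTGS2 are not given. The list median rests partly on genes with such counts. With single libraries dropped, CCL2 was called once in 6 fits, without RPMI plus B27 replicate 3 (adjusted p 0.0410 to 0.0958). Those fits called 0.0182% to 0.79% of all tested genes.

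Several of the 10 genes are also immediate early genes, which rise within minutes of growth factor, stress or cyclic AMP signals. In a list of 20 other immediate early genes, 18 had negative fold changes, with a median of -0.74. At an unadjusted p under 0.05 there were 10, where all tested genes gave 17.7%, and DESeq2 called 6, where it called 6.93%. FOSB, a subunit of the AP-1 factor, fell from 4.71, 6.81 and 3.24 CPM to 0.904, 1.14 and 0.534 CPM (-2.52 ± 0.41, adjusted p 0.0423), the 1 of 20 called without the block, where 1.07% of all tested genes were called lower. With the block 4 were called, all lower, where 3.42% of all tested genes were, including the stress-induced survival gene IER3 (-2.08 ± 0.22, adjusted p 0.0131) and the orphan nuclear receptors NR4A1 (-1.85 ± 0.21, 0.0150) and NR4A3 (-1.73 ± 0.26, 0.0255). The part of such signals in the values of DUSP1 and ERRFI1 was not tested. With single libraries dropped, FOSB too was called once, without RPMI plus B27 replicate 3 (adjusted p 0.0490 to 0.123). Those fits called 0.0182% to 0.79% of all tested genes.

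Clock genes gave a mixed picture around PER1. Of 17 listed 16 were tested, 11 with negative and 5 with positive fold changes and a median of -0.18. Without the block 0 were called, where 1.36% of all tested genes were, and DESeq2 called 2, where it called 6.93%. At an unadjusted p under 0.05 there were 4, where all tested genes gave 17.7%. RORA, a nuclear receptor that activates clock genes, was called with the block, where 3.42% of all tested genes were called lower. Its log2 fold change was -1.06 ± 0.19 with the block (adjusted p 0.0384) and -1.15 ± 0.35 without it (adjusted p 0.158). PER2, the paralogue of PER1, had 8.55, 7.49 and 8.17 CPM in RPMI plus B27, against 5.34, 5.59 and 5.60 CPM. Its groups did not overlap, where 12.8% of tested genes were lower without overlap, and it passed in neither fit (-0.55 ± 0.18, adjusted p 0.184 and 0.147). BHLHE40, a clock repressor, had -1.56 ± 0.56 (adjusted p 0.210 without and 0.0630 with the block), and leaving out replicate 1 of RPMI plus B27 gave -0.76 (adjusted p 0.423).

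**Figure D5:**
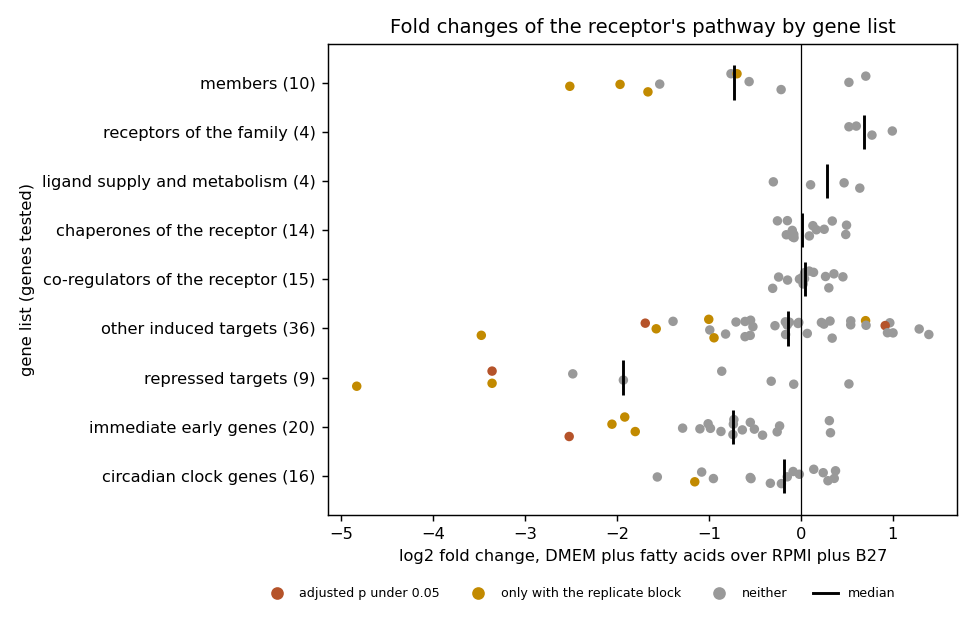
Each point is the log2 fold change of 1 tested gene (DMEM plus fatty acids relative to RPMI plus B27) in the list named on the vertical axis with its number of tested genes, black lines mark list medians and the vertical spread of points has no meaning. Chaperones and co-regulators lie close to 0 (medians 0.01 and 0.04), while the 10 genes (-0.73), immediate early genes (-0.74) and repressed targets (-1.93) have medians below 0.

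Some reads of these genes could belong to overlapping genes, since the strand setting of the counting is not stated. In GENCODE 29, exons of TSC22D3 share 71 bases with NCBP2L on the opposite strand, which had 16 counts over all 6 libraries. PER1 shares 78 exonic bases with the microRNA gene MIR6883, which had 8, and 30 with a coding gene on its own strand that was not used here. ERRFI1 shares 155 exonic bases with an antisense gene, and CRISPLD2 shares 206 and 98 with 2 antisense genes, none of which was used here. For NR3C1, FKBP5, KLF9, ZBTB16, SGK1 and DUSP1 no exonic overlap was found in that annotation.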

How the data were processed

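Messenger RNA libraries of 6 cultures were made with a stranded kit, per the labels' protocols. The deposited values are unnormalized read counts listed by symbol, 1 table for each culture, made by the authors with STAR and HTSeq on hg38, per the submitters' processing notes. Versions, annotation and strand setting are not given in the sources used here. Summary rows that name no gene (12.8% to 15.6% of each library) stayed out of library sizes and tests.

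The test was that of edgeR 4.0.16, run in R 4.3.3 (filterByExpr defaults, minimum count 10 and total 15; TMM library sizes; quasi-likelihood test; Benjamini-Hochberg over 16107 genes, threshold 0.05). The 2 media were compared over 3 and 3 libraries without covariates. The SE of a log2 fold change was derived from its F statistic. CPM values are TMM-scaled, apart from the limit given for CYP11B1, and log2 CPM used a prior count of 2. The biological coefficient of variation was 25.6%, or 18.2% with the replicate number as a block (2 residual degrees of freedom in place of 4).

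Replicate numbers come from the titles. Deviations from the medium's mean correlated across genes at 0.31, 0.43 and 0.37 for libraries of the same number and at -0.24 to -0.14 for others. The numbers were therefore read as pairing the libraries. Only the fit with the block uses that pairing, and the main test leaves it out.

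Alternatives were DESeq2 1.42.0, RLE size factors, total-count scaling, 2 other filters, the block and leaving out each library. The script was tested on simulated data. The genes, lists and tests were chosen with earlier results of these data known. Named genes are the 10, list genes called in either fit or with the 3 smallest p values of their list. The 5 nearest FKBP5, TNNT2 and COL1A1 were named too. HSP90AB1, FKBP4, MMP1, VCAM1, ICAM1, LIF, the steroid enzymes given by counts and the markers other than TNNT2 and COL1A1 were named after their values were seen. Among the genes this rule names, 2 are not reported here. Promoter windows and gene positions are from RefSeq (GRCh38.p14).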

Additional observations from a re-analysis of the deposited data

How the results depend on the processing

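No gene among the 10 changed direction under any of the alternatives run, and FKBP5, TSC22D3, ZBTB16, SGK1 and CRISPLD2 were called under none of them. None of the 10 was called by edgeR without the block, with RLE size factors, or with at least 10 counts required in every library, a filter that removed ZBTB16. The count was 4 with the replicate block (KLF9, ERRFI1, DUSP1 and PER1), 4 by DESeq2 (KLF9, ERRFI1, DUSP1 and NR3C1, where 6.93% of all genes were called), 3 with no filter on low counts (KLF9, ERRFI1 and DUSP1, where 2.00% were), and 1 with scaling by total counts (NR3C1, where 1.25% were). Leaving out 1 library gave 0 to 1, the 1 being ERRFI1 without RPMI plus B27 replicate 1. Over all genes, 219 were called without the block, 770 with the replicate block, 1232 by DESeq2, 539 with no filter and 119 with the stricter filter, and 3 to 131 when 1 library was left out (fewest without DMEM plus fatty acids replicate 3). Fewer libraries leave fewer degrees of freedom, and beyond that the cause was not tested. Scaling by total counts moved the median over all genes to 0.12 (log2) and the share of lower calls from 78.5% to 63.4%. Relative to that shift NR3C1 was higher by about as much as under TMM. Without RPMI plus B27 replicate 1 the fold changes of KLF9, ERRFI1, ZBTB16 and BHLHE40 were smaller by more than 1.5 times. Depth limits ZBTB16, HSD11B1 and PTGS2, with single-digit counts in some libraries.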
